A study of Mus musculus with 13 samples.

Results

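A set of 4 long noncoding RNAs of the nucleus and 4 noncoding host genes of small nucleolar RNAs (snoRNAs) were followed through a pull-down of RNA with part of the protein dAKAP1. The nuclear RNAs were Malat1, Neat1, Kcnq1ot1 and Meg3, and the hosts were Gas5, Zfas1, Snhg1 and Snhg12. These 8 genes were picked by symbol from the 27071 features of the count table, and all 8 passed the filter on low counts that left 10714 genes to test. dAKAP1 anchors protein kinase A at the outer mitochondrial membrane and carries a KH domain and a Tudor domain, which bind RNA. The groups compared here were KHT (4 pull-downs with purified KH and Tudor domains), NEG (4 negative control pull-downs) and IPT (4 libraries of the RNA that went in, labelled untreated). All used total RNA of MA-10, a mouse Leydig tumour cell line. NEG baits were empty anti-MBP beads, MBP (maltose-binding protein) or a protein labelled KHT(GDDG), and the labels do not say which library had which. A further control library, NEG 2, held no counts and was left out. The RNA had been extracted with Trizol before it met the bait, so the compartments of the cell were no longer separate.

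Malat1 is an abundant RNA of nuclear speckles, and Neat1 is the scaffold of paraspeckles, bodies built on that RNA with proteins such as Sfpq and Nono. Kcnq1ot1 is made from the paternal allele and silences neighbouring imprinted genes, and Meg3 is made from the maternal allele of the imprinted Dlk1-Dio3 domain. Gas5, Zfas1, Snhg1 and Snhg12 carry snoRNAs in their introns, and snoRNAs guide chemical modification of ribosomal RNA. Once the introns are removed, the spliced host RNA of several such genes is known to reach ribosomes and to be broken down by nonsense-mediated decay. Genes of this kind often begin with a 5′ terminal oligopyrimidine tract (TOP), a C followed by further pyrimidines at the transcription start, which ties translation to growth signals.

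The RefSeq annotation of GRCm38.p6, the build family named by the submitters, places Malat1 (chr19:5795690-5802672) and Neat1 (chr19:5824708-5845480) next to each other on chromosome 19, and Snhg1 (chr19:8723487-8726326) on the same chromosome. Kcnq1ot1 (chr7:143213111-143296547) lies inside the span of the protein-coding gene Kcnq1. Meg3 (chr12:109540996-109571729) overlaps the annotated span of Rtl1. Gas5 (chr1:161034601-161038539) overlaps Zbtb37, Zfas1 (chr2:167062934-167065862) overlaps Znfx1 at its start, and Snhg12 is at chr4:132308678-132311024. These overlaps are of whole gene spans. The library kit kept strand, with its use in counting not given in the sources used here. How reads from sequence shared by overlapping genes were assigned is therefore not known. The 4 hosts held 23 annotated snoRNA genes, 8 in Gas5, 3 in Zfas1, 8 in Snhg1 and 4 in Snhg12.

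Start sites of the 4 hosts and of Malat1 are shown as a description only. Any link between them and the levels in the libraries was not tested. Each line gives 20 bases before and 30 from the RefSeq start on, 5′ to 3′ on the strand of the gene. Capitals mark a run that opens with C, continues for at least 4 more bases that are C or T, and opens within 5 bases either side of the start, where the start is base 1 and the base before it is -1. The windows are chr1:161035146-161035195 for the downstream start of Gas5, chr2:167062914-167062963 for Zfas1, chr19:8723467-8723516 for Snhg1 and chr4:132308658-132308707 for Snhg12, all on the plus strand, and chr19:5802643-5802692 on the minus strand for Malat1.
Gas5: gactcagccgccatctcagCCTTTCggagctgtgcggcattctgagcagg
Zfas1: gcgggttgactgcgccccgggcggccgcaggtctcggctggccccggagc
Snhg1: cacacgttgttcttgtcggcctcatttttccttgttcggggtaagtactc
Snhg12: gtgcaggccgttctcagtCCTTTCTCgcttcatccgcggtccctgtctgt
Malat1: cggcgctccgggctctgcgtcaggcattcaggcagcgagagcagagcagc

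The run was 6 bases long at Gas5, opening at base -1, and 8 bases long at Snhg12, opening at base -2. No such run lay at the annotated starts of Zfas1, Snhg1, Malat1 or Kcnq1ot1, at the upstream start of Gas5 or at the downstream start of Meg3. The upstream start of Meg3 had a run of 5 bases opening at base -5. Sequences were in the table for 7 of the 8 genes, Neat1 being the exception. Over all RefSeq starts searched, 32841 in number, 18.3% had such a run, so its presence at 3 of the 9 starts of these genes is a description only. The search covered the transcript's strand alone.

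The negative controls held few counts outside a handful of features, which limits every comparison with them. Total estimated counts were 1955446 to 3689792 in KHT, 1162178 to 1618998 in NEG and 2487679 to 3085423 in IPT. The 9 features that each took 0.5% or more of pooled NEG counts, led by CT010467.1 and Lars2, made up 42.9% ± 9.88 of KHT, 97.1% ± 0.964 of NEG and 32.6% ± 5.62 of IPT counts (SD, n = 4 each). Outside them lay 929348 to 2101632 counts in KHT, 31318 to 49062 in NEG and 1542713 to 2237374 in IPT. CPM is the normalised count scaled to a library of one fixed size. Leydig genes marked the input: Star stood at 43.7 CPM, Cyp11a1 at 93.2 CPM and Nr5a1 at 193 CPM on average in IPT, and all 10 Leydig markers listed passed the filter. Of 4 Sertoli markers, Sox9 passed it, with 59 counts in KHT, 0 in NEG and 79 in IPT (2.35 CPM on average in IPT), while Wt1, Amh and Fshr had at most 4 counts in any group. Of 3 germ cell markers, Ddx4 passed it, with 63 counts in KHT, 0 in NEG and 82 in IPT. Sycp3 did not, with 2 counts in KHT, 0 in NEG and 0 in IPT, and Dazl was not found in the count table. The macrophage marker Cd68 had 29 counts in KHT, 0 in NEG and 8 in IPT, and Ptprc had 2, 0 and 3. Nothing in the labels says that the libraries came from separate cultures, so p-values measure the spread between these libraries, which may be technical.

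Libraries also differed within the groups. On the first principal component of the KHT and IPT libraries, which held 45.3% of the variance and was computed from 7735 genes without the nuclear RNAs and snoRNA hosts, KHT 1, KHT 2 and IPT 1 lay at 14.1, 46.1 and 24.8, against -13.2 and -0.479 for KHT 3 and KHT 4 and -27.9, -16.7 and -26.8 for IPT 2, 3 and 4. The set is a loose one: on this component KHT 1 lay nearer to KHT 4 than to KHT 2, and on the second KHT 1, KHT 2 and IPT 1 lay at 31.1, -12.1 and 13.9. The split was first noticed in counts of snoRNA hosts and then read from the other genes. Results that rest on these 3 libraries are given with and without them. Values in CPM and fold changes below are relative levels. CPM divides each count by the library total times a TMM factor set by edgeR. That factor was 2.05 to 3.13 in KHT and IPT and 0.0994 to 0.201 in NEG. CPM is therefore not a plain share of a library's reads, and the standing of NEG against the other groups depends on this scaling. Fewer cells holding an RNA and less of it per cell cannot be told apart.

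Setting KHT against NEG asks which of these RNAs the bait retained beyond what control baits did. Neat1 and Snhg1 were higher in KHT than in NEG, about 8-fold and 5-fold, and the other 6 members did not pass. Log2 fold changes were above 0 for all 8, though those of Kcnq1ot1 and Zfas1 turned below 0 without KHT 1, KHT 2 and IPT 1. That is 2 of 8 called higher and 0 lower (also 0 lower at an unadjusted p under 0.05 and in DESeq2), beside 31% of all genes tested called higher and 2.72% called lower, so the share of members called was near the background. All tests across genes are edgeR's quasi-likelihood test with a Benjamini-Hochberg adjustment over the 10714 genes and a threshold of 0.05. The median log2 fold change of the 8 was 1.53, and 1.31 with Snhg12 at its lower bound, beside 0.94 over all genes with genes at 0 in NEG treated the same way (1.73 with fitted values).

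**Figure D1:**
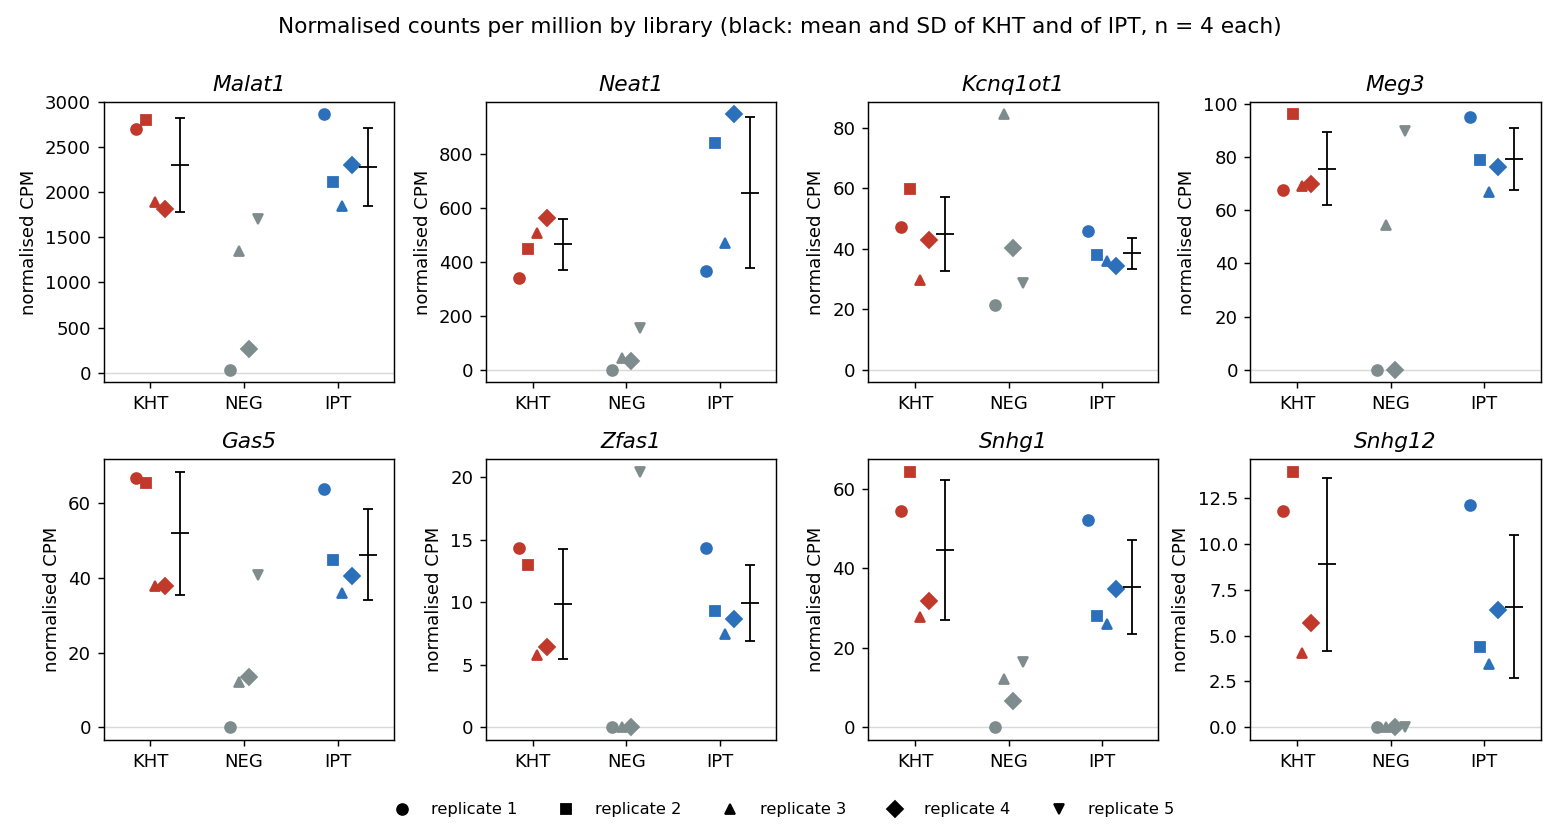
Normalised CPM (vertical axis, linear, a separate scale for each gene) in each of 12 libraries, with KHT left of NEG and NEG left of IPT. Symbols give the replicate number and black bars the mean and SD of KHT and of IPT (n = 4 each); Neat1 and Snhg1 are above every NEG library in each KHT library, and Snhg12 is at 0 in NEG.

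Neat1 had 2588, 1969, 4489 and 2272 counts in KHT 1 to 4, against 0, 7, 5 and 38 in NEG 1, 3, 4 and 5. The lowest KHT library, at 340 CPM, was above the highest NEG library, at 155 CPM. The log2 fold change was 2.99 (SE 0.95, edgeR adjusted p = 0.0231). The call ended without NEG 3 (edgeR adjusted p = 0.0602), without NEG 4 (0.0550) and without KHT 1, KHT 2 and IPT 1 together (0.0644). Over all 19 alternatives the log2 fold change lay between 2.58 and 6.79, with adjusted p-values from 1.1e-05 to 0.0644.

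Malat1 was the member with the most counts in every library. It had 20559, 12269, 16735 and 7308 counts in KHT 1 to 4, against 8, 223, 39 and 417 in NEG 1, 3, 4 and 5. In CPM the NEG libraries ran from 34.0 to 1704, just under the lowest KHT library at 1815. The groups did not overlap but came close, and the log2 fold change of 1.46 did not pass (SE 0.90, edgeR adjusted p = 0.189).

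Kcnq1ot1 differed least between pull-downs. It had 360, 261, 262 and 173 counts in KHT and 5, 14, 6 and 7 in NEG, and it was present in each NEG library, as among the members Malat1 alone also was. In CPM, KHT averaged 44.9 ± 12.4 and NEG 43.6 ± 28.3 (SD, n = 4 each), and the ranges overlapped. The log2 fold change of 0.09 had a 95% interval from -0.92 to 1.10 (edgeR adjusted p = 0.893), which still allows a 2.14-fold excess in KHT. Relative to Malat1 in the same library, Kcnq1ot1 had 1.75, 2.13, 1.57 and 2.37 counts per 100 Malat1 counts in KHT, against 62.5, 6.28, 15.4 and 1.68 in NEG, where NEG 1 and NEG 4 rest on 8 and 39 Malat1 counts. Kcnq1, the gene around it, had 61 counts in KHT, 0 in NEG and 31 in IPT in all.

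Meg3 had 516, 421, 611 and 281 counts in KHT, against 0, 9, 0 and 22 in NEG 1, 3, 4 and 5. NEG 5, at 89.9 CPM, lay inside the KHT range of 67.7 to 96.1 CPM, while NEG 1 and NEG 4 had none. The log2 fold change was 1.03 (SE 0.76, edgeR adjusted p = 0.269), and it was 2.21 without NEG 5 (adjusted p = 0.0248).

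Among the hosts, Snhg1, whose introns hold a series of box C/D snoRNAs, had 414, 281, 245 and 128 counts in KHT, against 0, 2, 1 and 4 in NEG. The groups did not overlap, with 27.7 CPM as the lowest KHT value and 16.3 CPM as the highest NEG value. The log2 fold change was 2.33 (SE 0.66, edgeR adjusted p = 0.0135). Of 19 alternatives, the call ended in 1, without KHT 1, KHT 2 and IPT 1 (1.77, adjusted p = 0.0537), and adjusted p-values reached down to 6.2e-08.

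Gas5, an RNA that builds up in growth-arrested cells, had 509, 287, 334 and 152 counts in KHT, against 0, 2, 2 and 10 in NEG. NEG 5, at 40.9 CPM, reached above the lowest KHT libraries at 37.7 and 37.8 CPM. The log2 fold change of 1.59 (SE 0.63, edgeR adjusted p = 0.0555) passed without NEG 5 (2.87, adjusted p = 0.00345), in DESeq2 (1.66, adjusted p = 0.00589) and with halved values (1.64, adjusted p = 0.0458), and adjusted p-values ran from 4.8e-07 to 0.186 over the 19 alternatives.

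Snhg12, which carries mainly H/ACA snoRNAs, had 90, 61, 36 and 23 counts in KHT and 0 in each NEG library. Taking 3 counts over all NEG libraries as the floor, KHT was at least 2.24-fold higher, a bound that covers counting error only. The edgeR test did not pass (adjusted p = 0.0571). It passed in 7 of 19 alternatives, among them DESeq2 (adjusted p = 0.0130) and the fit without KHT 3 (0.0315), and adjusted p-values ran from 2.3e-06 to 0.184.

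Zfas1, which runs divergently from Znfx1 and hosts Snord12, had 109, 57, 51 and 26 counts in KHT, against 5 counts in NEG that all lay in NEG 5. That single library stood at 20.4 CPM, above the highest KHT library at 14.3 CPM, and the other NEG libraries were at 0. The log2 fold change was 0.68 (SE 0.83, edgeR adjusted p = 0.511). With total counts in place of the TMM scaling it was 4.68 (edgeR adjusted p = 4.3e-06). Without NEG 5, Zfas1 was at 0 in NEG and passed (adjusted p = 0.0261).

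How libraries are scaled decides much of this comparison. With total counts in place of the TMM scaling, all 8 members were called higher in KHT, beside 97.3% of all genes tested. Log2 fold changes were 4.16 for Kcnq1ot1 and 6.79 for Neat1, while the median over all genes moved to 5.66. Relative to that median, Neat1 and Snhg1 had the larger changes among the members seen in NEG under both scalings. Member counts summed to 13 in NEG 1, 257 in NEG 3, 53 in NEG 4 and 503 in NEG 5. Without NEG 5, 5 members were called in place of 2, beside 47.2% of all genes called higher in place of 31%.

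**Figure D2:**
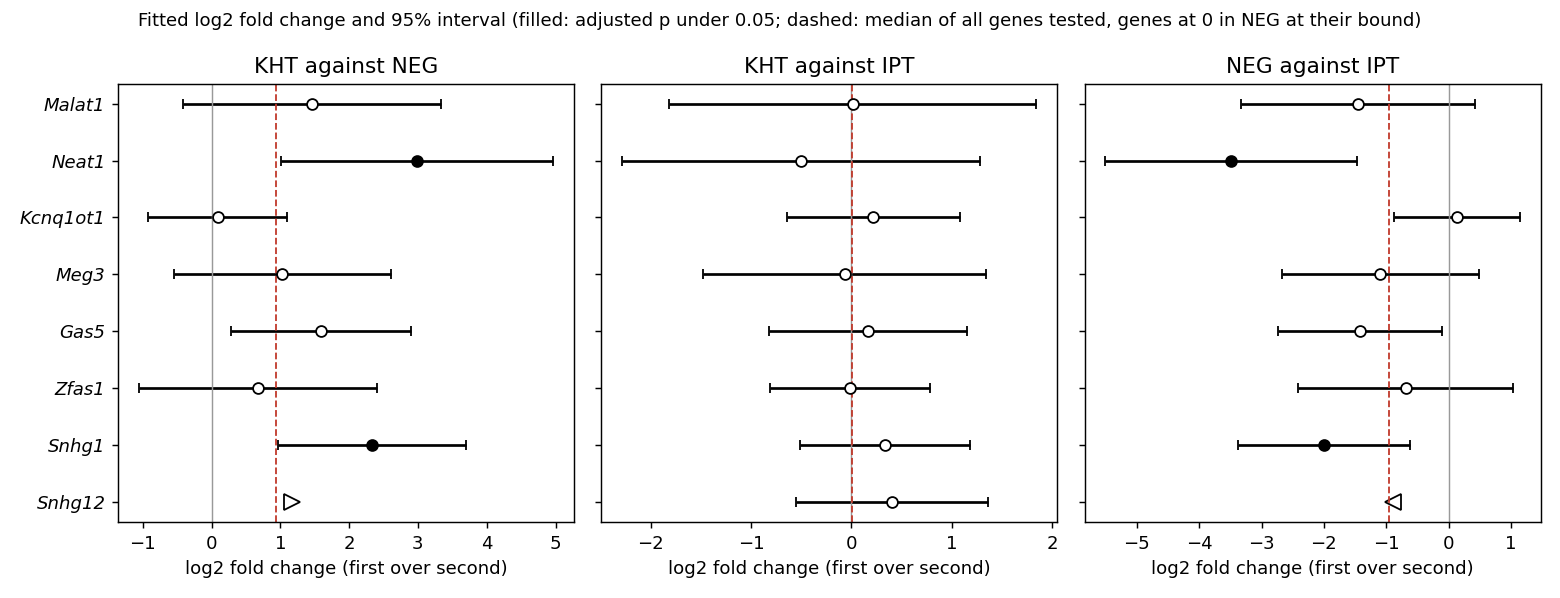
Log2 fold change with its 95% interval (horizontal axis, the first group over the second) for the 8 members in 3 comparisons; filled points passed an adjusted p of 0.05, open ones did not, and the dashed line is the median of all genes with genes at 0 in NEG at their bound. Arrowheads give the bound of Snhg12, which had no NEG counts; in KHT against IPT all 8 intervals include 0.

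The comparison of KHT with IPT asks whether an RNA had a higher or lower normalised level after the pull-down than in the RNA that went in. None of the 8 members passed in edgeR, none had an unadjusted p under 0.05, and none passed in DESeq2. Over all genes, 1 was higher (0.00933%) and 0 were lower (0%), with 175 at an unadjusted p under 0.05, and DESeq2 called 4 higher and 3 lower. Log2 fold changes ran from -0.50 for Neat1 to 0.41 for Snhg12, with a median of 0.09 beside 0.01 over all genes, and the KHT and IPT ranges overlapped for all 8.

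Because these fits share the spread of the sparse NEG libraries, the intervals were also taken from KHT and IPT alone, an alternative chosen after the data were seen. There Malat1 differed by 0.02 in log2 (95% interval -0.46 to 0.49), which bounds the change between 0.729-fold and 1.41-fold. Meg3 was bounded between 0.752-fold and 1.22-fold, and Kcnq1ot1 between 0.860-fold and 1.58-fold. The interval of Neat1 ran from 0.444-fold to 1.13-fold, that of Gas5 from 0.776-fold to 1.64-fold and that of Zfas1 from 0.604-fold to 1.64-fold. Those of Snhg1 (0.786-fold to 2.04-fold) and Snhg12 (0.632-fold to 2.81-fold) were the widest towards higher values in KHT. Every member's adjusted p in that fit was at least 0.9968 (edgeR).

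In CPM (mean ± SD, n = 4 each), Malat1 averaged 2301 ± 521 in KHT and 2280 ± 430 in IPT, and Meg3 averaged 75.7 ± 13.7 in KHT and 79.3 ± 11.7 in IPT. Neat1 had 465 ± 95.8 CPM in KHT and 658 ± 282 CPM in IPT. The IPT libraries of Neat1 fell apart into 367, 844, 472 and 949 CPM in IPT 1 to 4, so that IPT 2 and IPT 4 were above every KHT library and IPT 1 was below KHT 2, 3 and 4. Kcnq1ot1 stood at 44.9 ± 12.4 CPM in KHT and 38.5 ± 5.08 CPM in IPT.

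On the same scale, Gas5 had 52.0 ± 16.4 CPM in KHT and 46.2 ± 12.2 CPM in IPT, and Snhg1 had 44.5 ± 17.6 CPM in KHT and 35.2 ± 11.8 CPM in IPT. Zfas1 had 9.88 ± 4.40 CPM in KHT and 9.95 ± 3.05 CPM in IPT, and Snhg12 8.88 ± 4.74 CPM in KHT and 6.58 ± 3.91 CPM in IPT. Levels of different genes are not ranked here because values are not per length.

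The hosts varied from library to library within both groups, in an order that was first noticed in their own counts. All 4 hosts were higher in KHT 1 and KHT 2 than in KHT 3 and KHT 4, and higher in IPT 1 than in IPT 2, 3 and 4. Over all genes tested, 18.2% had this order and 17.2% the opposite order. Of 39 protein-coding snoRNA hosts 14 had this order and 3 the opposite, and of 8 box C/D particle proteins 4 had this order and 0 the opposite. Nop56 was counted on both of these lists. Other lists were balanced: 4 and 4 of 16 paraspeckle proteins, 5 and 5 of 22 nuclear speckle proteins, and 4 and 4 of 18 nonsense-mediated decay factors. Of 10 Leydig markers 1, Scarb1, had this order and 5, Cyp17a1, Fdx1, Cyp11a1, Tspo and Insl3, the opposite, and their part in the order of the hosts was not tested. Snhg12 stood at 11.8 and 13.9 CPM in KHT 1 and 2 and at 4.07 and 5.71 CPM in KHT 3 and 4, and at 12.1 CPM in IPT 1 but 4.37, 3.43 and 6.38 CPM in IPT 2, 3 and 4. Snhg1 had 54.3, 64.2, 27.7 and 31.8 CPM in KHT 1 to 4, and 52.0, 27.9, 26.1 and 34.8 CPM in IPT 1 to 4. Gas5 had 66.8, 65.5, 37.7 and 37.8 CPM in KHT 1 to 4, and 63.7, 44.8, 35.9 and 40.5 CPM in IPT 1 to 4.

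Zfas1 followed the same order, with 14.3, 13.0, 5.76 and 6.46 CPM in KHT 1 to 4 and 14.4, 9.30, 7.45 and 8.68 CPM in IPT 1 to 4. Malat1 and Kcnq1ot1 shared the order with smaller steps: Malat1 had 2699, 2801, 1890 and 1815 CPM in KHT 1 to 4. Neat1 had the opposite order, with 340, 450, 507 and 564 CPM in KHT 1 to 4. Meg3 had neither. The 4 hosts together made 43.4 and 34.8 counts per 100 Neat1 counts in KHT 1 and 2 and 38.7 in IPT 1, against 14.8 and 14.5 in KHT 3 and 4 and 10.2, 15.5 and 9.52 in IPT 2, 3 and 4.

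**Figure D3:**
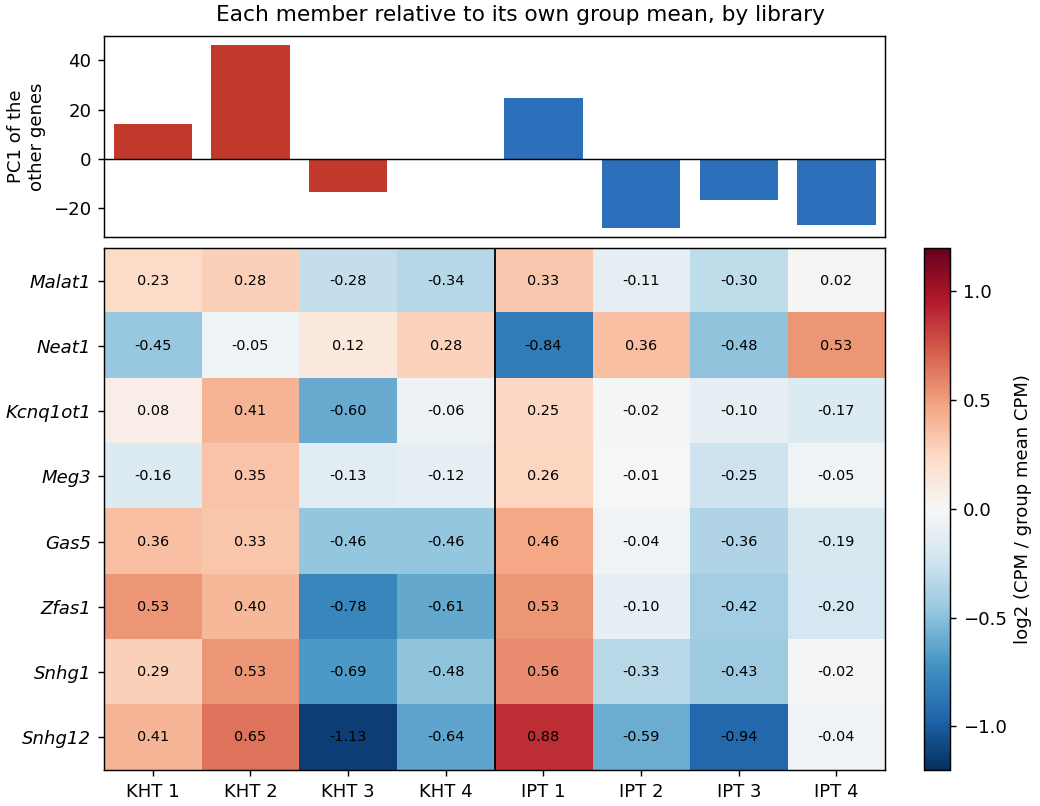
The upper panel gives the position of each KHT and IPT library on the first principal component of 7735 other genes, and the lower panel the log2 ratio of each member's CPM to the mean of its own group, by library. The 4 hosts are above their group mean in KHT 1, KHT 2 and IPT 1, up to 0.88 for Snhg12 in IPT 1, where Neat1 is at -0.84.

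Setting these libraries aside brought Snhg1, Snhg12 and Gas5 nearer to no difference between KHT and IPT, but not Zfas1. The fall in the hosts' values followed from the choice of libraries. They were first noticed by high counts of snoRNA hosts, and more of them were KHT than IPT libraries. The values below, also those with the library set as a term, are therefore a description only. Without KHT 1, KHT 2 and IPT 1, the log2 fold change of Snhg12 was 0.01 in place of 0.41, and those of Snhg1 and Gas5 were -0.0030 and -0.10 in place of 0.34 and 0.17. That of Zfas1 was -0.48 (SE 0.40, edgeR adjusted p = 1). With the library set as a term in a fit of KHT and IPT alone, the hosts lay between -0.31 and 0.08, and Neat1 was at -0.28 (SE 0.29, edgeR adjusted p = 0.971). What made these libraries differ was not tested.

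Ratios within a library do not depend on how libraries are scaled, and none of the 7 ratios to Malat1 passed. Neat1 had 12.6, 16.1, 26.8 and 31.1 counts per 100 Malat1 counts in KHT 1 to 4, against 12.8, 40.0, 25.5 and 41.2 in IPT 1 to 4. Both groups thus ran from about 13 upwards, with the low values in libraries numbered 1 and in KHT 2. The mean log2 ratio was 0.42 lower in KHT, a difference of -0.42, with an exact two-sided permutation p of 0.400 (adjusted p = 0.560 over 7 ratios).

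Meg3 had the narrowest spread of log2 ratios in the input, with an SD of 0.0899: it had 2.51, 3.43, 3.65 and 3.85 counts per 100 Malat1 counts in KHT, against 3.32, 3.75, 3.62 and 3.32 in IPT. Gas5 averaged 2.22 ± 0.223 counts per 100 in KHT, against 2.01 ± 0.208 in IPT (SD, n = 4 each). Snhg1 had the lowest p of the 7 ratios, with a mean of 1.88 ± 0.354 in KHT, against 1.51 ± 0.215 in IPT (log2 difference 0.30, exact permutation p = 0.143, adjusted p = 0.550). With 4 libraries in each group the smallest p the test allows is 2 of 70 assignments, and the 7 adjusted values lay between 0.550 and 0.857.

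**Figure D4:**
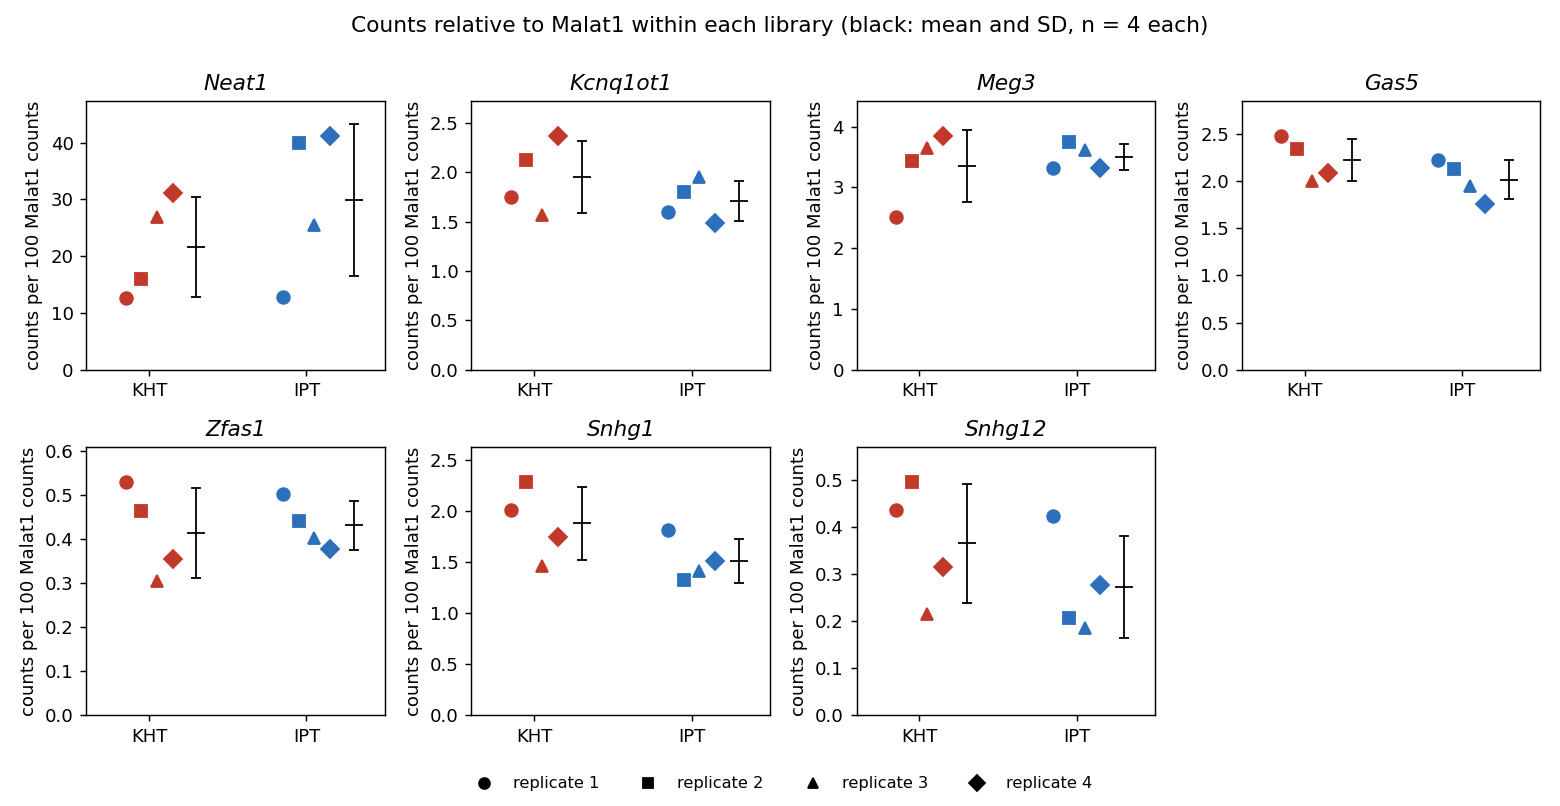
Counts of each member per 100 Malat1 counts in the same library (vertical axis from 0), for KHT left of IPT, with symbols for the replicate number and black bars for the mean and SD (n = 4 each). The groups overlap for all 7 genes, and Neat1 spreads over 12.6 to 31.1 in KHT and 12.8 to 41.2 in IPT.

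The comparison of NEG with IPT shares libraries with both others, so its values stand beside them and add no separate support. Neat1 was lower in NEG (log2 fold change -3.49, SE 0.97, edgeR adjusted p = 0.0120), and so was Snhg1 (-1.999, SE 0.67, adjusted p = 0.0266). That is 2 of 8 called lower and 0 higher, beside 32.5% of all genes called lower and 3.64% called higher. Neat1 kept this call in all 19 alternatives, and Snhg1 lost it without NEG 1 (0.0740), NEG 4 (0.0575) or IPT 1 (0.0538). Kcnq1ot1 had 43.6 ± 28.3 CPM in NEG and 38.5 ± 5.08 CPM in IPT (SD, n = 4 each; log2 fold change 0.13, edgeR adjusted p = 0.838), and total counts turned its direction (-4.20). Snhg12 was at least 1.85-fold lower in NEG against the floor of 3 counts over the group.

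Other RNAs of the same kinds were read from lists chosen with earlier results known. In KHT against NEG, edgeR called 4 of 11 further noncoding snoRNA hosts higher and 0 lower, beside 31% and 2.72% over all genes, so the share was near the background. Snhg6 (at least 2.78-fold), Snhg17 (at least 2.48-fold) and Snhg15 (at least 1.64-fold) had no NEG counts, and 1110038B12Rik had 229 KHT counts against 1 NEG count, a ratio of 7.32 (95% interval from counting alone 1.30 to 291, edgeR adjusted p = 0.0278). None of the 11 passed between KHT and IPT. Of them 6, Snhg5, Snhg6, Snhg11, Snhg15, Snhg17 and 1110038B12Rik, had the library order of the 4 hosts, and none had the opposite order. Over all genes tested the shares were 18.2% and 17.2%. That order was first noticed in counts of snoRNA hosts, so its presence in further hosts is a description only. Snhg5 showed it most plainly in counts, with 329, 186, 75 and 62 in KHT 1 to 4 and 386, 67, 58 and 93 in IPT 1 to 4.

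Of 8 further nuclear RNAs tested, KHT exceeded NEG for 2, a share under the 31% over all genes: Tug1, an RNA first described in developing retina (log2 fold change 2.35, SE 0.67, edgeR adjusted p = 0.0137), and 2900097C17Rik (3.12, SE 0.76, adjusted p = 0.00718). Of the 8, Tug1, Firre and Pvt1 had the library order of the hosts, beside 18.2% of all genes tested. Mirg, Rian and 2900097C17Rik had that of Neat1, beside 17.2%. In the imprinted domain of Meg3, Rian and Mirg, already counted above, and Rtl1 and Dlk1 were lowest in KHT 1, KHT 2 and IPT 1. That was 4 of the 5 genes tested there, beside 17.2% of all genes, while Meg3 was not lowest in them. Whether the domain differs from other genes in this was not tested. Rtl1 passed as higher in KHT, from 377 KHT counts against 2 NEG counts, a ratio of 6.03 (95% interval from counting alone 1.66 to 50, edgeR adjusted p = 0.0295). Among 6 imprinted neighbours of Kcnq1ot1 tested, including Cdkn1c, a cell cycle inhibitor silenced on the paternal allele, none passed in any of the 3 comparisons in edgeR.

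Of 39 protein-coding snoRNA hosts, many of them ribosomal protein genes, KHT exceeded NEG for 11 and lay below it for 1, Rpl30 (log2 fold change -1.98), again near the 31% and 2.72% over all genes. Rpl10 led by p among those with NEG counts (3.20, SE 0.71, edgeR adjusted p = 0.00500). Reads given to any 1 ribosomal protein gene are uncertain, because near-identical copies exist. Of 16 paraspeckle proteins 4 were higher and none lower, led by Rbm14 (at least 4.78-fold). Sfpq and Nono, which bind Neat1, did not pass (log2 fold changes 1.61 and 0.35, adjusted p = 0.0551 and 0.583).

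Of 22 nuclear speckle genes 5 were higher, led by the splicing kinase Clk1 at 609 KHT counts against 2 NEG counts, a ratio of 9.74 (95% interval from counting alone 2.68 to 80.6), and 1, Pnn, was lower (log2 fold change -1.17). Of 18 factors of nonsense-mediated decay 4 were higher and none lower, among them Upf1, its central helicase, at 991 KHT counts against 2 NEG counts, a ratio of 15.8 (4.38 to 131). Of 8 genes for proteins of box C/D snoRNA particles 1 was higher, Znhit6 (at least 1.51-fold). For the paraspeckle, speckle, decay and box C/D lists the shares called higher were all under the 31% over all genes. Between KHT and IPT none of the genes on these lists passed in edgeR, beside the 0.00933% and 0% over all genes. Medians between KHT and NEG, with genes at 0 in NEG at their bound, were 0.73 for the other noncoding hosts, 1.53 for the other nuclear RNAs, 1.38 for protein-coding hosts, 1.00 for paraspeckle proteins, 1.08 for speckle proteins and 1.08 for decay factors, beside 0.94 over all genes.

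**Figure D5:**
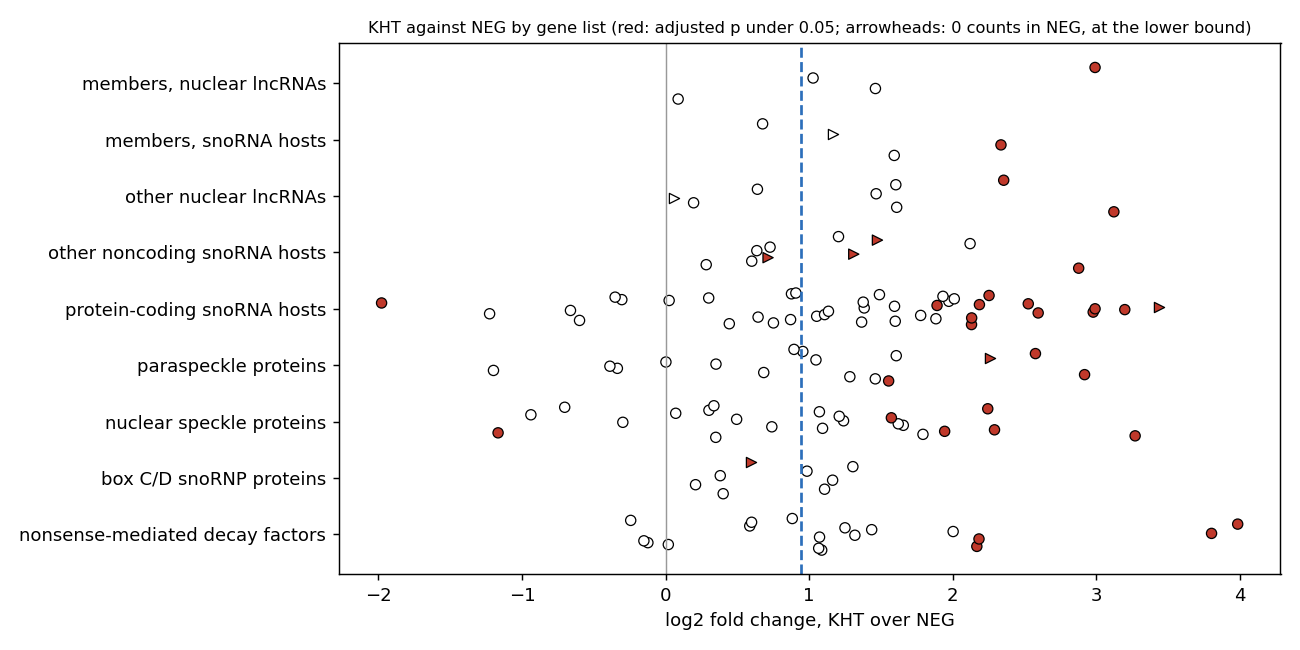
Log2 fold change of KHT over NEG (horizontal axis) for each tested gene of 9 lists, red where the adjusted p was under 0.05, with the dashed line at the median of all genes (0.94, genes at 0 in NEG at their bound). Arrowheads are lower bounds of genes with no NEG counts; Snhg9, whose bound is under 1-fold, is not drawn, and the 2 red points left of 0 are Rpl30 and Pnn.

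The snoRNAs inside the hosts were scarcely counted themselves. Of the 23 annotated snoRNA genes, 6 were found by symbol in the count table, and together they had 15 counts in KHT, 2 in NEG and 42 in IPT, while the 4 hosts had 2803 counts in KHT, 26 in NEG and 3301 in IPT. Snord22, the namesake snoRNA of Snhg1, had 2 counts in KHT, 2 in NEG and 19 in IPT, and Snora44 in Snhg12 had 5 in KHT, 0 in NEG and 6 in IPT. These counts are too few for a comparison.

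By profile over the 12 libraries, the genes most like Malat1 were Anapc5 (Pearson r of log2(CPM + 1) 0.991) and Ptms (0.990), those most like Neat1 were Cbx5 (0.994) and Psmd2 (0.992), and those most like Snhg1 were Nfe2l1 (0.993) and Vegfa (0.987). For Gas5 they were Echs1 (0.995) and Serinc3 (0.994), for Zfas1 Ift172 (0.997) and Gys1 (0.996), for Snhg12 Gatc (0.996) and Ric8b (0.991), and for Meg3 Fgd4 (0.998) and Baz1b (0.997). Kcnq1ot1 had weaker matches, among them Rab10 (0.889). These are descriptions over 12 points that share the gap between the sparse NEG libraries and the rest, picked from 6650 candidates.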

How the data were processed

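RNA sequencing libraries of 4 KHT, 5 NEG and 4 IPT samples were grouped by title, since the description of KHT samples speaks of negative controls while title and treatment name KHT. The labels name polyA RNA in one field and depletion of ribosomal RNA in others, which was not settled. The authors deposited estimated counts (expected counts per gene, unscaled); the tools named are kallisto and DESeq2 and the builds GRCm38 and mm10, per the submitters' processing notes, with no versions or roles. Strand setting and any filter are not given in the sources used here. Values were already whole. Both mates of a pair may have been counted, so halved values were an alternative, and floors and counting intervals, which cover counting error only, may be too narrow.

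NEG 2 was left out. Symbols came from a gene name table (27004 of 27071 identifiers matched), coordinates and start sequences from RefSeq, GRCm38.p6. Counts were tested with edgeR 4.0.16 in R 4.3.3 (TMM, filterByExpr, robust glmQLFit, glmQLFTest, two-sided) in 1 fit of 12 libraries, with DESeq2 1.42.0 as an alternative. SE is the log2 fold change over the root of F, and 95% intervals use the fit's degrees of freedom. Ratios to Malat1 (0.5 added to each count) were tested by exact permutation. The fit was tested on simulated data, and the permutation test on small fixed sets of values with known answers. Members and lists were chosen with earlier results of these data known. All 8 members are named; from each other list up to 4 genes with the smallest p between KHT and IPT and up to 2 with the smallest p between KHT and NEG could be named, and others named here were chosen after their values were seen. Genes most alike were the 2 with the highest r among those averaging 5 CPM or more, leaving out gene models and pseudogenes. Some items are not reported here.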

Additional observations from a re-analysis of the deposited data

Results flagged for a closer look

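Among 37 groups of 4 libraries examined for a value far from the other 3, 2 stood out, about what chance gives at 1 in 20. Meg3 was at 96.1 CPM in KHT 2, while the other KHT libraries lay between 67.7 and 69.8 CPM. Zfas1 was at 20.4 CPM in NEG 5 from 5 counts, while the other NEG libraries were at 0.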

How the results depend on the processing

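Each comparison was refitted under 18 alternatives, plus 1 or, between KHT and IPT, 3 chosen after the data were seen. Between KHT and NEG (3324 genes higher, 291 lower, 2 members higher), total counts gave 10426, 14 and 8, the absence of a filter gave 791 lower, DESeq2 gave 4 members and leaving out KHT 1, KHT 2 and IPT 1 gave 0. Leaving out 1 library gave 1720 (without NEG 1) to 5421 (without NEG 5) higher, 174 to 454 lower and 1 to 5 members. Between KHT and IPT no member was called in any alternative; genes higher and lower were 0 and 0 with total counts, 4 and 3 in DESeq2, 43 and 13 with no filter, 0 and 1 with halved values, 10 and 5 without the 3 libraries, 1 and 3 with the library set as a term, 1 and 1 in KHT and IPT alone, and 0 to 2 each without 1 library. Between NEG and IPT (390 higher, 3482 lower, 2 members lower), total counts gave 50, 10423 and 8, no filter gave 987 higher, DESeq2 gave 4 members, and leaving out 1 library gave 1783 (without NEG 1) to 5438 (without NEG 5) lower and 1 to 5 members.

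The replicate numbers did not pair the libraries: deviations of KHT and IPT libraries with the same number correlated at 0.219, -0.425, 0.251 and 0.163. With the replicate block 5042 genes and 6 members passed as higher in KHT against NEG, and 5 members were lower in NEG than in IPT; the block fits NEG 5 by itself, as leaving it out does. A block on the ratios could not reach the threshold with 4 pairs, so it tests nothing.

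Directions turned mostly for differences near 0. Between KHT and NEG, Kcnq1ot1 was at -0.15 with the block, -0.20 without the 3 libraries and -0.13 to 0.65 without 1 library, and Zfas1 at -0.0209 without the 3. Between KHT and IPT, Malat1 was at -0.22 with total counts, -0.0348 in DESeq2, -0.0092 with no filter, -0.0177 with the block, -0.17 without the 3 libraries, -0.12 with the library set and -0.0936 to 0.14 without 1 library. Kcnq1ot1 was at -0.0319 and Gas5 at -0.0525 with total counts, Gas5 at -0.10 and Snhg1 at -0.0030 without the 3, and Gas5 at -0.0342 with the set. Without 1 library Meg3 ran from -0.20 to 0.0306 and Zfas1 from -0.27 to 0.22. Between NEG and IPT, Kcnq1ot1 was at -4.20 with total counts, -0.0704 in DESeq2, -0.17 with no filter and -0.43 to 0.34 without 1 library. Ratios to Malat1 turned for Meg3 (0.0755 without the 3 libraries, -0.15 to 0.0581 without 1) and Zfas1 (-0.21 to 0.0583 without 1). The causes were not tested. NEG depth limits all of this: 6 members had 0 counts in at least 1 NEG library.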
